A study of Rattus norvegicus with 12 samples.

Results

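The genes described here fold, modify, export and degrade proteins in the endoplasmic reticulum, together with the sensors that watch over that work. They were chosen as a list of 40 rat genes, and probes were matched to them through the RefSeq transcript named for each probe. Of these 40 genes, 38 had a probe, and all 38 gave a signal well above background on all 12 arrays. Manf and Derl2 had no matched probe and are not analysed here. Where a gene had several probes, the brightest was used. The 38 genes are part of 20373 genes or transcripts tested on the same arrays.

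Primary hepatocytes that had been cryopreserved, from male rats of the Sprague Dawley strain, were kept in culture for 24 h and then exposed for 24 h. The groups were triclosan, diclosan and 1-chloro-3-(4-chlorophenoxy) benzene (CCPB), each at 30 µM, and the vehicle control DMSO, with 3 one-colour Agilent arrays in each. All groups share the strain, sex, freezing, pre-culture and exposure time. The submitters describe the arrays of a group as independent experiments, but whether these used different rats or cell lots is not stated, so the p-values measure only the spread between these samples. Triclosan, an antibacterial agent, is a chlorinated diphenyl ether with a hydroxyl group on a ring. Diclosan has that hydroxyl group too but not all of triclosan's chlorine atoms. CCPB has no hydroxyl group, and the position of a chlorine atom also sets it apart from diclosan.

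Proteins bound for secretion enter the endoplasmic reticulum through a channel, are folded there by chaperones and disulfide enzymes, and leave in coated vesicles or, if they fail to fold, are pulled back to the cytosol and degraded. The membrane sensors ATF6, IRE1 (encoded by Ern1) and PERK (encoded by Eif2ak3) react to an excess of unfolded protein, and with the transcription factor XBP1 they raise the genes of the folding machinery, a programme called the unfolded protein response. Hepatocytes secrete most plasma proteins and carry this machinery at high levels.

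The arrays lay on 2 slides, according to the file headers, and each slide had its own scan date. Slide and scan date therefore cannot be told apart here. The triclosan and DMSO arrays lay on slide 1 with diclosan replicates 1 and 2, and the CCPB arrays on slide 2 with diclosan replicate 3. The counts over the 38 genes are therefore given for each comparison without and with the slide as a block. Differences of single genes that stand without a blocked value are those of the fit without the block, and the blocked ones can differ in size or sign. For CCPB against DMSO or triclosan only the diclosan group, with arrays on both slides, carries the block. Diclosan replicate 3 stood apart, with a median absolute difference of 0.114 log2 units per gene from each of the other two, against 0.0658 between those. Over the 38 genes it was lower than their mean by a median of -0.064, with 11 of 38 genes above 0, and over all genes the median was -0.0072. Between 51.7% and 55.6% of probes were above background on an array, 0 spots were saturated, and the number of arrays limits the precision. All 9 hepatocyte markers were well above background on every array.

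Relative to DMSO, 15 of the 38 genes were lower, 2 were higher and 21 were not called on the CCPB arrays, without the slide as a block (limma, adjusted p under 0.05 over all genes), led by Derl3, Creld2, Sel1l and Sdf2l1, which were 1.54-fold, 1.40-fold, 1.34-fold and 1.32-fold lower. Over all genes tested 28.3% were called in this comparison, 14.2% as lower and 14.1% as higher. The 38 genes varied less within groups, with a median standard deviation of 0.048 log2 units against 0.081 over all genes. An equal difference therefore passes more readily among them, and shares called here and below are not on equal terms with those of all genes. The CCPB and DMSO arrays did not overlap for 26 of the 38 genes (20 lower, 6 higher). Over all genes this held for 50.1% (24.2% lower, 25.9% higher). The median difference over the 38 genes was -0.08 log2 units, with a range of -0.63 to 0.25, against a median of 0.0040 over all genes. In bulk samples fewer cells of a type and less RNA per cell cannot be told apart. With the slide as a block 0 of the 38 genes passed, where 3.4% of all genes did, and the median difference over the 38 genes was -0.025. The median half-width of a 95% interval was 0.15 log2 units with the block and 0.096 without it. The smallest adjusted p in the blocked fit was that of Ero1b (0.0853). Without the block the count of 17 called genes was 10 with median centring and 10 with no filter on dim probes.

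Triclosan and diclosan gave no called change in any of the 38 genes. Between triclosan and DMSO 0 of 38 passed, where 13 genes or 0.0638% of all did, and with the slide as a block 0 of 38 passed against 0.25% of all. Between diclosan and DMSO 0 of 38 passed, with 0.00982% of all genes called without the block and 0.0147% with it. Unadjusted p was under 0.05 for 4 of the 38 genes with triclosan, against 11.6% of all genes, and for 9 with diclosan, against 10.5% of all. The differences ran between -0.14 (Ern1) and 0.16 (Dnajb9) for triclosan minus DMSO and between -0.19 (Ern1) and 0.21 (Sec24d) for diclosan minus DMSO. Without the block the 95% intervals of all 38 genes lay within -0.26 to 0.27 for triclosan and within -0.31 to 0.32 for diclosan. With the block they lay within -0.26 to 0.27 and within -0.30 to 0.41. Without diclosan replicate 3 the count for diclosan was 0 too. The 3 comparisons with DMSO share the same DMSO arrays.

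**Figure D1:**
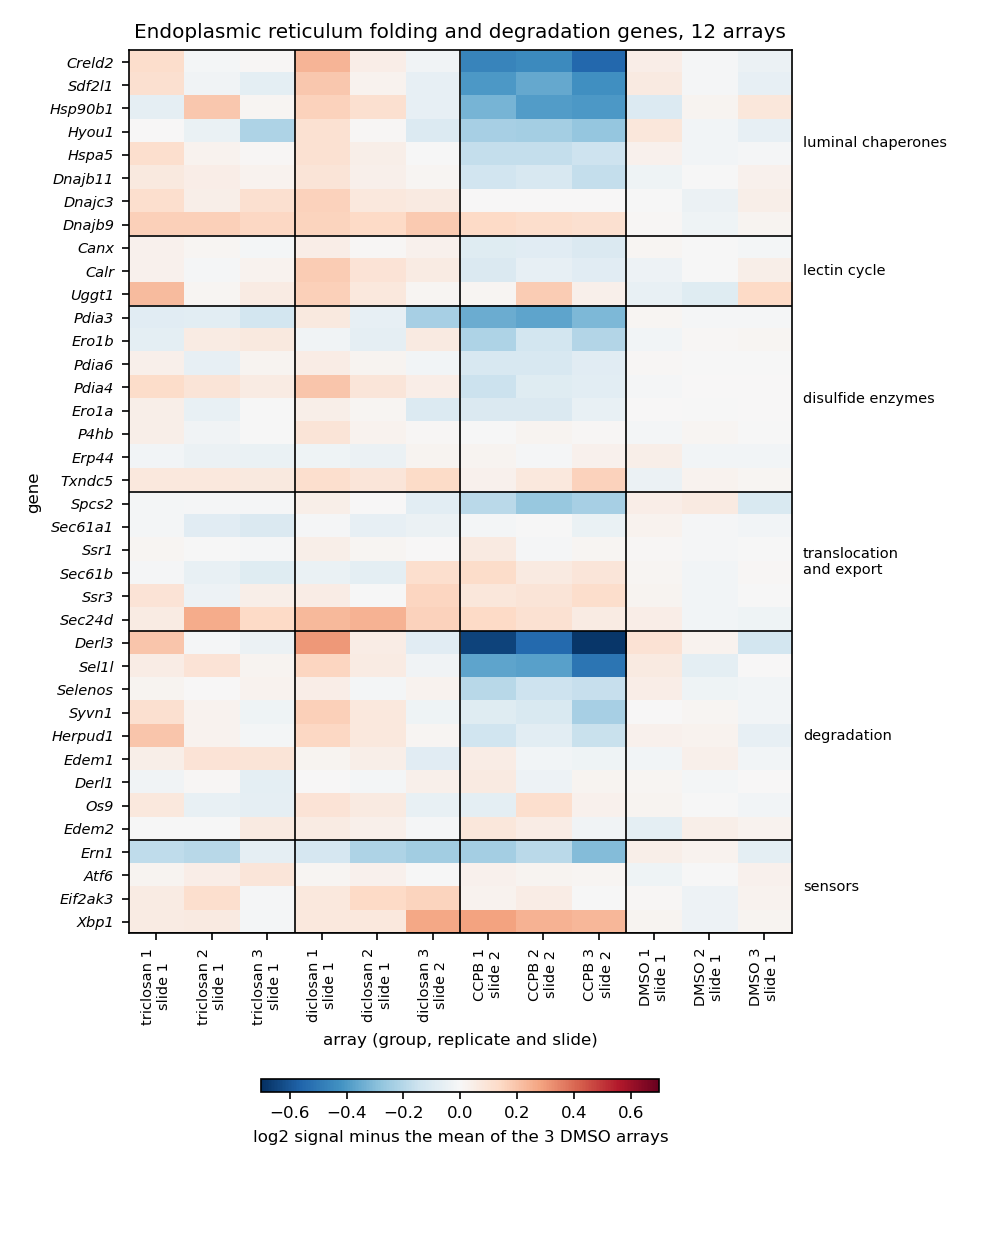
Each cell of the heatmap is the log2 signal of a gene on an array minus the mean of the 3 DMSO arrays, with genes in rows by role and arrays in columns by group, replicate and slide. The CCPB columns are blue for the 15 genes called lower, down to Derl3 with a mean difference of -0.63, and red for Xbp1 at 0.25.

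**Figure D2:**
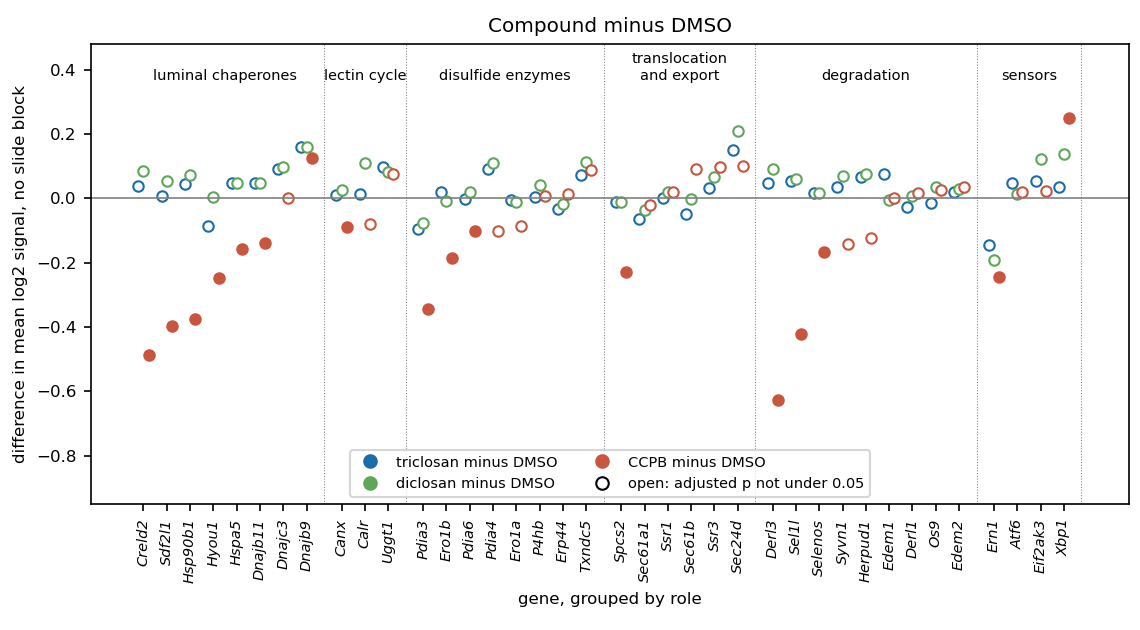
The points give the difference in mean log2 signal between a compound and DMSO for each of the 38 genes by role, and filled points passed the test without the slide block. All filled points belong to CCPB, 15 of them below 0 and 2 above it.

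Many genes of this system carry the endoplasmic reticulum stress response element (ERSE) in their promoter, a motif bound by the factor NF-Y together with ATF6 or XBP1. RefSeq promoters (250 bases before to 50 after the start site, GRCr8) were given for 30 of the 40 genes and searched on both strands. ERSE was spelled as CCAAT, any 9 bases, then CCACG. It was found in 9 of the 30 genes (30.0%) and in 21 of all 27457 genes with a promoter (0.0765%). The shorter form ERSE-II, spelled as ATTGG, any base, then CCACG, was found in 3 of the 30 genes (10.0%) and in 0.0619% of all. The core TGACGTG, read by XBP1 and ATF6, was found in Hspa5 and Hyou1 (6.67%) and in 2.02% of all genes with a promoter. In Hyou1 it overlaps an ERSE-II match on the other strand. A match is a description of these letters only.

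The ERSE of 4 genes is printed here because their levels are followed through the results, with up to 40 bases on either side, in the reading direction of the gene. Capitals mark the ERSE, which in Creld2 and Derl3 lies on the opposite strand. Creld2 is at chr7:121789199-121789297 (plus strand), Derl3 at chr20:12766561-12766659 (minus strand), Hspa5 at chr3:38452933-38453015 (plus strand) and Xbp1 at chr14:84604518-84604616 (plus strand), all upstream of the start site.
Creld2: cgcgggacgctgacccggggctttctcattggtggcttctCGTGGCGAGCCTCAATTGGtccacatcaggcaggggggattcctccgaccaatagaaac
Derl3: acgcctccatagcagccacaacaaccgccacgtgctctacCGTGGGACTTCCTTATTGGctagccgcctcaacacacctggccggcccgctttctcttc
Hspa5: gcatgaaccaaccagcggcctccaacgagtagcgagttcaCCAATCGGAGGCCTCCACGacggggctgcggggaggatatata
Xbp1: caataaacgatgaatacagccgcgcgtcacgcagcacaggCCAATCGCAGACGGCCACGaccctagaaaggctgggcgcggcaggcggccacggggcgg

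Of the 12 genes with an ERSE or ERSE-II, 8 were lower and 1 was higher on the CCPB arrays than on the DMSO arrays, with a median difference of -0.15 log2 units. The exceptions with no call were Calr, Dnajc3 and Herpud1, and Xbp1 was the higher one. Of the 17 measured genes whose given promoter held neither, 4 were lower and 1 was higher, with a median of 0.01. Over all genes 28.3% were called, 14.2% as lower and 14.1% as higher. With the slide as a block the medians were -0.09 and -0.0044, and 0 of the 38 genes passed. These counts were not tested. Sel1l, Sdf2l1, Selenos and Spcs2 were lower with neither motif in the window, and Dnajb9 was the higher one there. Of the 9 measured genes with no promoter given, 3 were lower and 0 were higher. With up to 1 mismatch allowed, 15 of the 30 genes held an ERSE, against 1.57% of all genes with a promoter. The split therefore depends on the exact spelling, and a link between motif and direction was not tested.

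**Figure D3:**
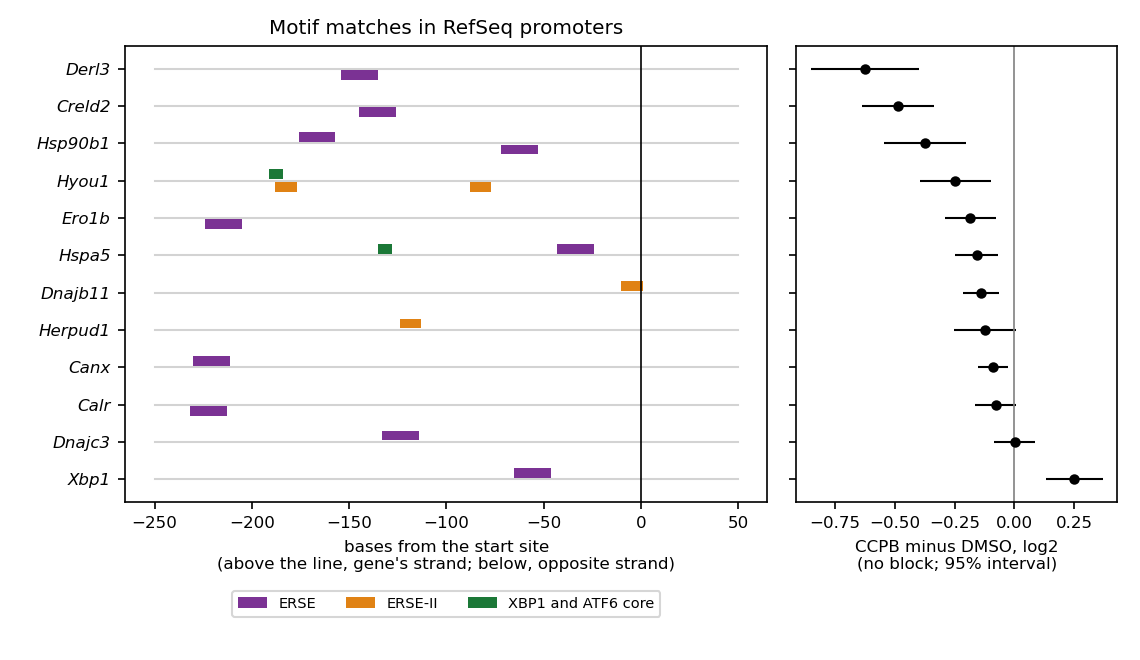
Bars on the left mark motif matches by distance from the start site in bases, above the line for the gene's own strand and below it for the opposite strand, for the 12 genes with an ERSE or ERSE-II. Points on the right give CCPB minus DMSO on the log2 scale with 95% intervals, no block, from Derl3 (-0.63) at the top to Xbp1 (0.25) at the bottom.

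Among the luminal chaperones and their partners, 6 of the 8 measured were lower with CCPB than with DMSO and 1 was higher. That is 87.5% called against 28.3% of all genes, which varied more within groups, before the slide was taken as a block. Creld2, a protein of the compartment that is induced by unfolded protein, had levels of 4.14, 4.00 and 4.02 on the triclosan arrays, 4.25, 4.06 and 4.00 on the diclosan arrays, 3.55, 3.57 and 3.47 on the CCPB arrays and 4.07, 4.01 and 3.98 on the DMSO arrays. A level here is the log2 signal minus the array's 75th percentile, and levels of different genes come from different probes and are not set against each other. All 3 CCPB arrays lay below all 9 others, including diclosan replicate 3 on the same slide. CCPB minus DMSO was -0.49 (95% interval -0.64 to -0.34, adjusted p = 0.000893), and -0.32 with the slide as a block (-0.57 to -0.081, adjusted p = 0.15).

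Sdf2l1, which joins the chaperone BiP and keeps its clients from aggregating, had levels of 5.04, 4.91 and 4.86 with triclosan, 5.12, 4.96 and 4.88 with diclosan, 4.53, 4.57 and 4.50 with CCPB and 5.00, 4.92 and 4.88 with DMSO. Its pattern over the arrays was that of Creld2, with the CCPB arrays lowest and apart from the rest. The difference between CCPB and DMSO was -0.40 (-0.55 to -0.24, adjusted p = 0.00286) and -0.23 in the blocked fit (adjusted p = 0.306). Hspa5 encodes BiP itself, the main chaperone of the compartment and the partner that holds the 3 sensors inactive. Its levels were 7.77, 7.68 and 7.66 with triclosan, 7.76, 7.70 and 7.65 with diclosan, 7.49, 7.49 and 7.51 with CCPB and 7.69, 7.64 and 7.65 with DMSO. The CCPB arrays were again the lowest and did not overlap the others, but by less than for Creld2 (-0.16, -0.25 to -0.068, adjusted p = 0.0179; -0.08 with the slide as a block, adjusted p = 0.58).

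A further 3 chaperones were lower with CCPB than with DMSO without the block: Hsp90b1 (GRP94, -0.37), Hyou1 (GRP170, a nucleotide exchange factor for BiP, -0.25) and Dnajb11 (a co-chaperone of BiP, -0.14). Dnajc3, which also restrains PERK, differed by 0.0026 (-0.084 to 0.089). Dnajb9, a co-chaperone of BiP that represses IRE1, went the other way and is described because its values stood out. Its levels were 2.07, 2.07 and 2.05 with triclosan, 2.06, 2.05 and 2.09 with diclosan, 2.04, 2.03 and 2.02 with CCPB and 1.92, 1.87 and 1.92 with DMSO. Every array of the 3 compounds lay above every DMSO array. The difference passed for CCPB (0.12, adjusted p = 0.0117; 0.09 with the slide as a block, adjusted p = 0.37). It did not pass for triclosan (0.16, 0.095 to 0.22, adjusted p = 0.0803; 0.0622 with the block) or for diclosan (0.16, 0.097 to 0.22, adjusted p = 0.127; 0.251 with the block).

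In the lectin cycle, in which calnexin and calreticulin hold glycoproteins until they fold, 1 of 3 genes was lower with CCPB. That is 33.3% called, against 28.3% of all genes. Canx (calnexin) had levels of 4.71, 4.69 and 4.67 with triclosan, 4.73, 4.69 and 4.71 with diclosan, 4.60, 4.60 and 4.58 with CCPB and 4.69, 4.68 and 4.67 with DMSO. The change was small, and the CCPB arrays did not overlap the others (-0.09, -0.15 to -0.026, adjusted p = 0.0408). With the block the difference was -0.09 (adjusted p = 0.37). Calr (calreticulin) had levels of 5.23, 5.19 and 5.22 with triclosan, 5.37, 5.29 and 5.25 with diclosan, 5.09, 5.14 and 5.12 with CCPB and 5.16, 5.20 and 5.24 with DMSO. It did not pass (-0.08, -0.16 to 0.0073, adjusted p = 0.153). Uggt1, the glucosyltransferase that returns unfolded glycoproteins to the cycle, differed by 0.08 (-0.098 to 0.25).

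Of the 8 disulfide enzymes, 3 were lower with CCPB than with DMSO and 0 were higher, or 37.5% called against 28.3% of all genes. Pdia3, the isomerase that works with calnexin and calreticulin, had levels of 4.73, 4.73 and 4.68 with triclosan, 4.88, 4.75 and 4.58 with diclosan, 4.46, 4.44 and 4.50 with CCPB and 4.82, 4.80 and 4.80 with DMSO. Diclosan replicate 3 lay nearer to the CCPB arrays than its own group's other arrays did. The difference between CCPB and DMSO was -0.34 (-0.48 to -0.20, adjusted p = 0.00406) and -0.11 with the block (-0.26 to 0.048, adjusted p = 0.469). Ero1b, an oxidase that recharges the isomerases, had levels of -0.50, -0.37 and -0.36 with triclosan, -0.46, -0.50 and -0.37 with diclosan, -0.65, -0.56 and -0.64 with CCPB and -0.45, -0.43 and -0.42 with DMSO. Here the blocked difference was the larger one (-0.18, -0.29 to -0.077, adjusted p = 0.02; -0.29, -0.47 to -0.12, adjusted p = 0.0853 with the block). Pdia6 was lower by less (-0.10, adjusted p = 0.0491). Pdia4, P4hb, Txndc5, Erp44 and Ero1a did not pass, with differences between -0.10 (Pdia4) and 0.09 (Txndc5).

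Of 6 translocation and export genes, 1 was lower with CCPB than with DMSO and 0 were higher, or 16.7% called against 28.3% of all genes. That gene was Spcs2, a subunit of the signal peptidase that trims proteins entering the compartment, with levels of -1.53, -1.53 and -1.53 with triclosan, -1.48, -1.52 and -1.59 with diclosan, -1.71, -1.79 and -1.75 with CCPB and -1.47, -1.46 and -1.63 with DMSO. Its difference was -0.23 (-0.34 to -0.12, adjusted p = 0.00904) and -0.14 with the block (adjusted p = 0.447). Ssr3, a subunit of the translocon-associated complex, had levels of 4.05, 3.92 and 4.00 with triclosan, 4.01, 3.95 and 4.10 with diclosan, 4.04, 4.05 and 4.08 with CCPB and 3.98, 3.94 and 3.95 with DMSO. Its diclosan array on slide 2 was the highest of all 12, and the CCPB difference did not pass (0.10, -0.0063 to 0.20, adjusted p = 0.143). The channel subunits Sec61a1 (-0.02) and Sec61b (0.09), Ssr1 (0.02) and the vesicle coat gene Sec24d (0.10) did not pass either.

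Degradation genes held the largest difference. Of 9 measured genes, 3 were lower with CCPB than with DMSO and 0 were higher, or 33.3% called against 28.3% of all genes. Derl3, a derlin that takes part in moving misfolded proteins out of the compartment, had levels of 3.16, 2.96 and 2.93 with triclosan, 3.27, 3.02 and 2.89 with diclosan, 2.32, 2.42 and 2.29 with CCPB and 3.07, 2.995 and 2.84 with DMSO. The lowest of the other 9 arrays was a DMSO array, and the CCPB arrays lay well below it. The difference was -0.63 (-0.85 to -0.40, adjusted p = 0.00216), and with the block -0.37 (-0.74 to -0.0018, adjusted p = 0.275). The second probe of Derl3 gave -0.58 (adjusted p = 0.00309 over all probes).

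Sel1l, the adaptor that hands substrates to the ubiquitin ligase encoded by Syvn1, had levels of 4.43, 4.48 and 4.41 with triclosan, 4.53, 4.44 and 4.36 with diclosan, 4.02, 4.00 and 3.87 with CCPB and 4.45, 4.32 and 4.39 with DMSO. All CCPB arrays lay below all others. The difference was -0.42 (-0.55 to -0.29, adjusted p = 0.000832), and -0.29 with the block (-0.51 to -0.082, adjusted p = 0.136). The second probe of Sel1l gave a smaller difference of -0.20 (adjusted p = 0.0234 over all probes), and did not pass for triclosan minus CCPB (0.14, adjusted p = 0.0932) or diclosan minus CCPB (0.17, adjusted p = 0.0673). Selenos, a selenoprotein that binds derlins, was lower without the block (-0.17, adjusted p = 0.00604), and the blocked difference was -0.17 (adjusted p = 0.16). Syvn1 (-0.14), Herpud1 (-0.12), Derl1 (0.02), Os9 (0.03), Edem1 (0.00086) and Edem2 (0.04) did not pass. For Edem1, which helps to mark glycoproteins for degradation, a further probe gave 0.15 (adjusted p = 0.0364), so its probes disagree.

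**Figure D4:**
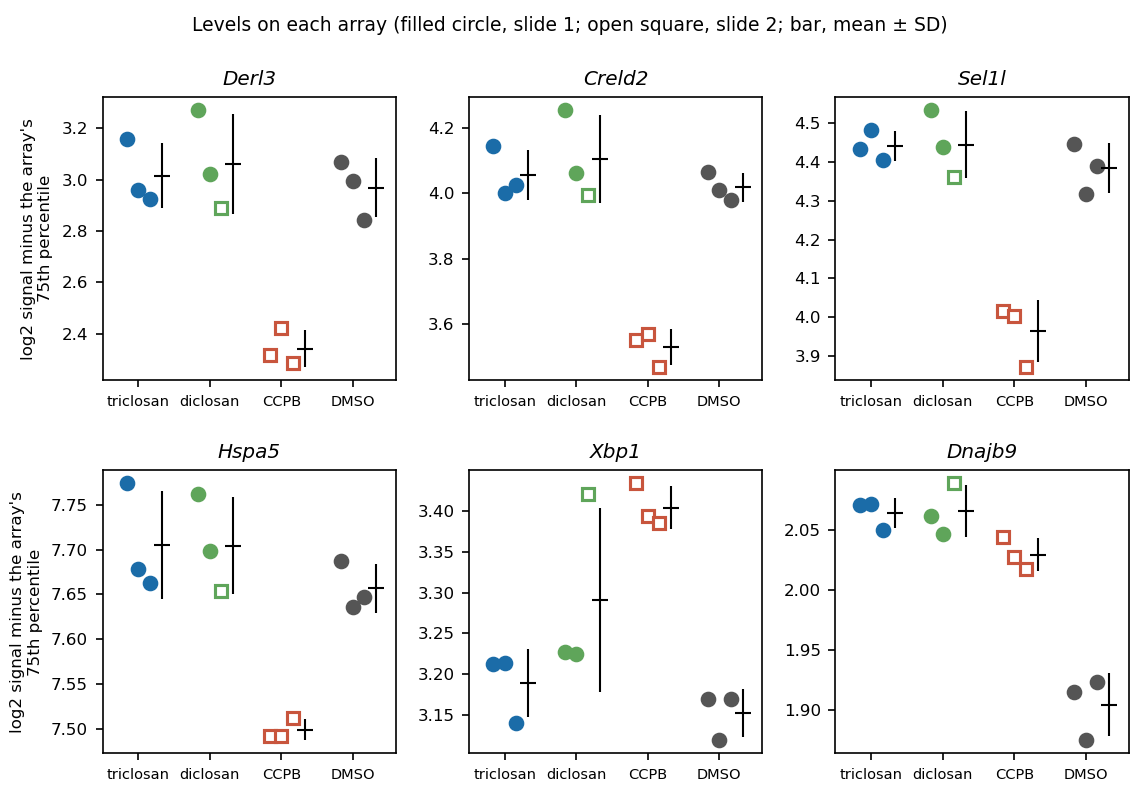
Points are the levels (log2 signal minus the array's 75th percentile) of 6 genes on each of the 12 arrays by group, filled circles for slide 1 and open squares for slide 2, with bars for mean ± SD (n = 3). For Derl3, Creld2, Sel1l and Hspa5 the open square of diclosan lies with slide 1 arrays and above the CCPB squares, and for Xbp1 it lies among the CCPB squares at 3.42.

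The sensors and their transcription factor showed no common direction. Xbp1, whose messenger is spliced by IRE1 to encode the active factor, was read by a single probe not assigned here to either form. It had levels of 3.21, 3.21 and 3.14 with triclosan, 3.23, 3.23 and 3.42 with diclosan, 3.43, 3.39 and 3.38 with CCPB and 3.17, 3.12 and 3.17 with DMSO. The high arrays were the 4 arrays of slide 2, among them diclosan replicate 3. CCPB minus DMSO was 0.25 (0.13 to 0.37, adjusted p = 0.00779), and 0.06 with the slide as a block (-0.076 to 0.19, adjusted p = 0.671).

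Ern1, which encodes the kinase and nuclease IRE1, had levels of -3.09, -3.11 and -2.98 with triclosan, -3.03, -3.13 and -3.16 with diclosan, -3.15, -3.11 and -3.22 with CCPB and -2.88, -2.89 and -2.98 with DMSO. The diclosan and CCPB arrays lay below all DMSO arrays. The difference passed for CCPB alone (-0.24, adjusted p = 0.00925; -0.17 with the block, adjusted p = 0.399) and not for triclosan (-0.14, adjusted p = 0.344) or diclosan (-0.19, adjusted p = 0.28). The differences between compounds for Ern1 did not pass (0.10 for triclosan minus CCPB, adjusted p = 0.21, and 0.05 for diclosan minus CCPB, adjusted p = 0.55). Atf6, a sensor that is itself cleaved into a transcription factor, had levels of 3.39, 3.42 and 3.46 with triclosan, 3.39, 3.404 and 3.37 with diclosan, 3.404, 3.396 and 3.39 with CCPB and 3.35, 3.37 and 3.41 with DMSO. Its groups overlapped, and CCPB minus DMSO was 0.02 (-0.048 to 0.089). Eif2ak3, which encodes PERK, had levels of 0.99, 1.05 and 0.92 with triclosan, 1.01, 1.07 and 1.09 with diclosan, 0.96, 0.99 and 0.93 with CCPB and 0.94, 0.90 and 0.96 with DMSO. It did not pass in any of the 6 comparisons (CCPB minus DMSO 0.02, -0.066 to 0.11).

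Of the comparisons with CCPB, that of diclosan with CCPB is the one in which both groups have an array on the same slide, at equal dose and time. Without the block 18 of 38 genes were higher with diclosan and 0 were lower, where 14.2% of all genes were called, 8.08% as higher and 6.17% as lower. With the slide as a block 3 of 38 passed, all higher with diclosan, where 4.9% of all genes did. These were Creld2 (0.57 without the block; 0.46 with it, 95% interval 0.27 to 0.65, adjusted p = 0.0178), Sel1l (0.48; 0.40, 0.23 to 0.56, adjusted p = 0.0193) and Derl3 (0.72; 0.55, 0.26 to 0.83, adjusted p = 0.0448). The blocked difference is that of diclosan replicate 3 from the mean of the CCPB arrays, so it rests on 1 diclosan array, which is assumed to vary like the other arrays. The Sel1l value is that of its brightest probe. Without diclosan replicate 3, 18 genes were higher and 2 were lower (Xbp1, and Sec61b at -0.15). The count of 18 became 10 without diclosan replicate 1, and 11, 10 and 11 without CCPB replicates 1, 2 and 3. Within slide 2, diclosan replicate 3 lay above all 3 CCPB arrays for 23 of 38 genes, below all of them for 2 and among them for 13. Over all genes it lay above them for 33.6% and below them for 31.0%. The next blocked differences were those of Sdf2l1 (0.34) and Hsp90b1 (0.32), which did not pass. Xbp1 differed there by 0.02, while its difference without diclosan replicate 3 was -0.18 (adjusted p = 0.00745), against -0.11 with it (adjusted p = 0.175).

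Triclosan, which has the hydroxyl group and a further chlorine atom, was higher than CCPB for 14 of 38 genes and lower for 1 (Xbp1, -0.22) without the block. Over all genes 20.5% were called, 9.6% as higher and 10.9% as lower, so that 46.8% of the calls were higher, and with median centring 35.7% were. The largest differences were those of Derl3 (0.67, 0.45 to 0.90, adjusted p = 0.00258), Creld2 (0.53, 0.38 to 0.68, adjusted p = 0.00109) and Sel1l (0.48, 0.35 to 0.60, adjusted p = 0.000833). With the slide as a block 0 of 38 genes passed and 1.4% of all did, with differences of 0.42, 0.36 and 0.35 for these 3 genes (adjusted p = 0.272, 0.153 and 0.118). The count of 15 became 9 without CCPB replicate 1.

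Triclosan and diclosan, which differ by a chlorine atom, were not separated by these genes. Of 38 genes 0 passed without or with the block, where 0 (0%) and 1 (0.00491%) of all genes did, and unadjusted p was under 0.05 for 1 of the 38 without the block, against 6.81% of all genes. Without the block the differences lay between -0.10 (Xbp1) and 0.08 (Edem1), and all 38 intervals lay within -0.27 to 0.19 log2 units. With it the intervals lay within -0.36 to 0.18. In all 6 pairs were compared, each adjusted over its own 20373 genes.

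**Figure D5:**
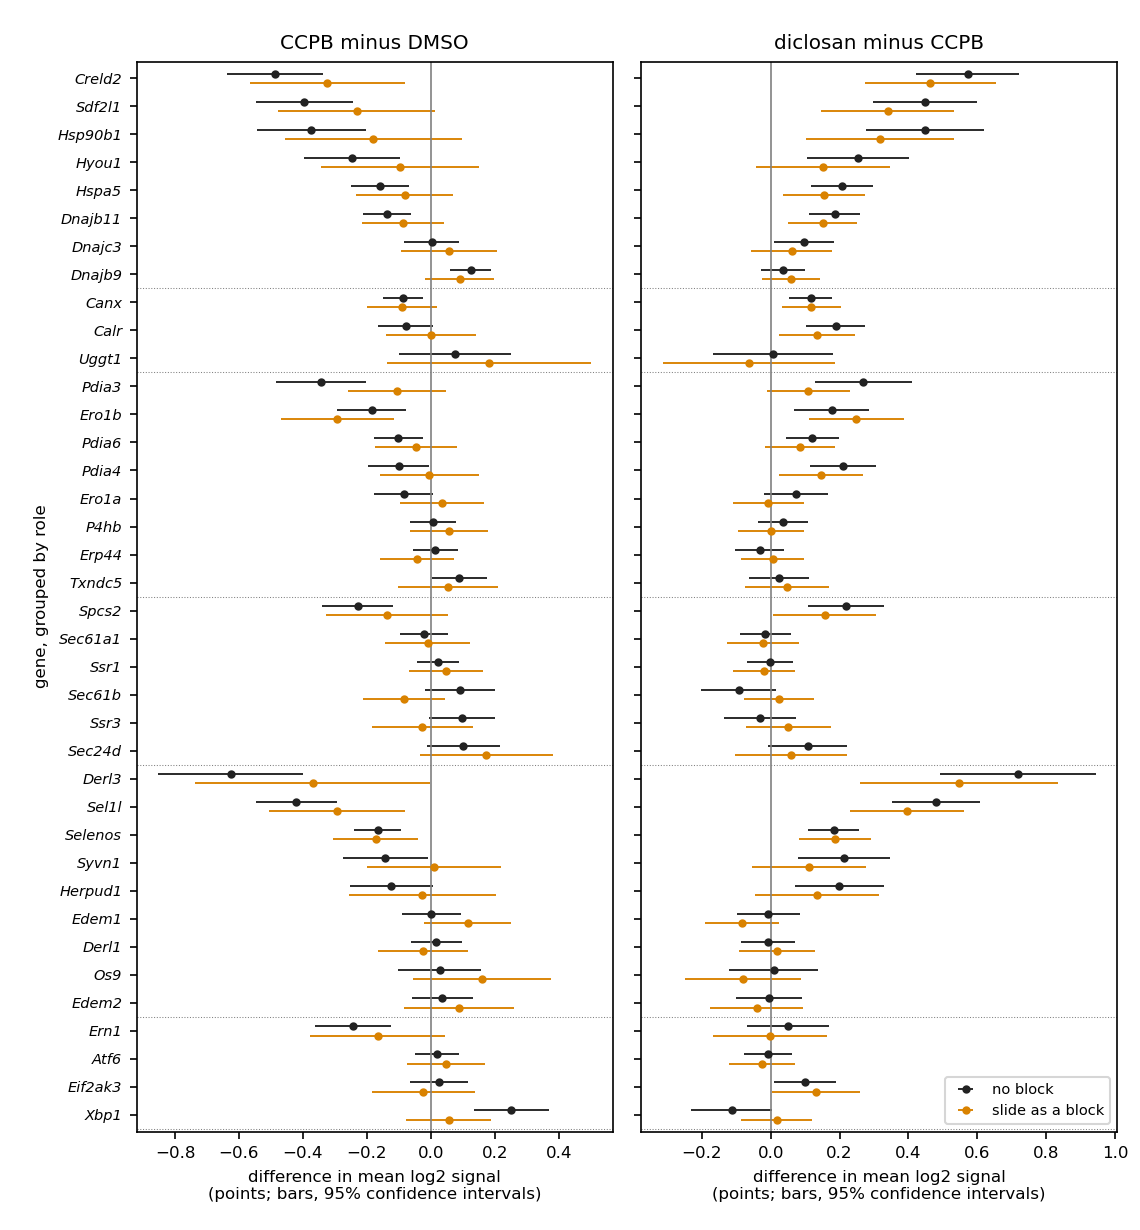
Points are differences in mean log2 signal for the 38 genes by role, CCPB minus DMSO on the left and diclosan minus CCPB on the right, with bars for 95% confidence intervals, black without and orange with the slide as a block. In the right panel Creld2 (0.46), Sel1l (0.40) and Derl3 (0.55) keep the largest orange values.

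Genes of the same pathways outside the list were counted in 7 further lists, in which 0 genes were called for triclosan or diclosan against DMSO. For CCPB against DMSO the share called was 28.3% of all genes without the block, and 13.6% to 22.2% in the first 4 of these lists. For CCPB against DMSO without the block, 3 of 22 other folding factors were lower and 0 higher, with Fkbp7, a prolyl isomerase, at -0.20 (adjusted p = 0.00934). Of 15 genes of glycan transfer and trimming, 2 were higher and 1 was lower, among them the oligosaccharyltransferase subunits Stt3a (0.14) and Stt3b (-0.10). Of 18 genes of signal recognition and the translocon, 3 were higher and 1 was lower, with Sec63, a partner of the channel, at 0.22 (adjusted p = 0.00181). Of 23 other degradation genes 2 were higher and 2 lower, with the ubiquitin ligases Rnf185 (-0.20) and Rnf5 (-0.17) lower.

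Of 18 genes of COPII vesicle export, 6 were higher with CCPB than with DMSO, 0 were lower and 12 were not called, a share of 33.3% called against 28.3% of all genes, and with the slide as a block 1 passed. Sar1b, the small GTPase that starts coat assembly, was higher by 0.30 (adjusted p = 0.000601; 0.26 with the block, adjusted p = 0.0842). Sec16b, which organises exit sites, had levels of 2.35, 2.38 and 2.40 with triclosan, 2.38, 2.40 and 2.25 with diclosan, 2.68, 2.65 and 2.58 with CCPB and 2.30, 2.43 and 2.41 with DMSO. It was the one that passed in both fits, higher without the block (0.26, adjusted p = 0.0047) and with it (0.40, adjusted p = 0.0279). Of 11 partners of the sensors 3 were higher and 1 was lower. Creb3l3, a liver transcription factor of the reticulum membrane that is cleaved in the manner of ATF6, had levels of 3.31, 3.30 and 3.36 with triclosan, 3.20, 3.29 and 3.06 with diclosan, 3.50, 3.65 and 3.55 with CCPB and 3.15, 3.27 and 3.17 with DMSO. It too was higher with CCPB than with DMSO without the block (0.37, adjusted p = 0.00295) and with it (0.56, adjusted p = 0.0159). Nfyb, a subunit of the NF-Y factor that binds the CCAAT part of ERSE, was lower (-0.29, adjusted p = 0.00786; -0.18 with the block, adjusted p = 0.43).

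Downstream of PERK, 5 of 12 listed genes were lower with CCPB than with DMSO and 1 was higher, without the block (28.3% of all genes called). With the slide as a block 0 were lower and 2 were higher (3.4% of all genes called). These were Ppp1r15b, which encodes a phosphatase subunit that reverses the action of PERK (0.15, adjusted p = 0.0129; 0.25 with the block, adjusted p = 0.039), and the transcription factor gene Cebpb (0.17, adjusted p = 0.0715; 0.39 with the block, adjusted p = 0.0338). Ppp1r15b alone passed in both fits, and both genes are named because the blocked count consists of them. Ddit3, which encodes the factor CHOP, had levels of 5.13, 4.74 and 4.63 with triclosan, 4.81, 4.79 and 4.84 with diclosan, 4.35, 4.46 and 4.49 with CCPB and 4.89, 4.77 and 4.77 with DMSO. The CCPB arrays were the lowest (-0.38, adjusted p = 0.0284; -0.42 with the block, adjusted p = 0.329). Sesn2 (-0.49, adjusted p = 0.00408), Ddit4 (-0.43, adjusted p = 0.00111) and Chac1 (-0.32, adjusted p = 0.00371) were lower as well, and none of these 3 passed with the block. Atf4, the transcription factor between PERK and these genes, differed by -0.07 (adjusted p = 0.155) and its target Trib3 by -0.19 (adjusted p = 0.0623), without the block. With the block both differences were above 0, at 0.01 for Atf4 (adjusted p = 0.941) and 0.07 for Trib3 (adjusted p = 0.706).

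Markers of other liver cells were measured on the same arrays, and their part in the results above was not tested. Linear levels were summed over 3 of 6 endothelial markers (Cdh5, Kdr and Vwf), kept because they were well above background on all 3 arrays of a group. The sum was 7.41 to 7.99 on the triclosan arrays and 7.90 to 9.56 on the diclosan arrays. On the CCPB arrays it was 9.32 to 9.66, and on the DMSO arrays 7.98 to 8.48. A fraction of 0.778 of the readings of these markers was above background with diclosan and 0.889 with triclosan and CCPB. Vwf, the brightest of them, was higher with CCPB than with DMSO without the block (0.21, adjusted p = 0.0394) and differed by -0.03 with it (adjusted p = 0.908), while Pecam1, Stab2 and Lyve1 were not well above background. For 3 of 6 cholangiocyte markers, kept by the same rule (Krt7, Epcam and Sox9), the range was 2.78 to 3.24 with triclosan and 2.79 to 3.05 with diclosan. It was 3.50 to 3.56 with CCPB and 2.77 to 2.96 with DMSO, with Krt19, Cftr and Spp1 not well above background. A fraction of 0.667 of the readings of the kept markers was above background with diclosan and 0.889 with triclosan and CCPB. Epcam (0.33, adjusted p = 0.00959) and Sox9 (0.28, adjusted p = 0.0214) were higher with CCPB than with DMSO without the block, and Krt7 differed by -0.02. With the block Epcam and Sox9 did not pass (adjusted p = 0.382 and 0.503). For macrophages, 4 of 9 markers were kept (Cd68, Clec4f, Tyrobp and C1qb). They gave 0.771 to 1.03 with triclosan, 1.03 to 1.19 with diclosan, 0.928 to 1.05 with CCPB and 0.718 to 0.996 with DMSO. For stellate cells and fibroblasts, 6 of 8 were kept (Col1a1, Col1a2, Col3a1, Acta2, Des and Reln). Their sum was 1.49 to 2.45 with triclosan, 1.88 to 2.29 with diclosan, 2.01 to 2.10 with CCPB and 1.95 to 2.63 with DMSO. Among these 6, Acta2 was higher with CCPB than with DMSO without the block (0.42, adjusted p = 0.0357), and the other 5 did not pass. With the block Acta2 did not pass (0.29, adjusted p = 0.575). The 9 hepatocyte markers gave 2110 to 2225 with triclosan, 2095 to 2182 with diclosan, 2202 to 2256 with CCPB and 2167 to 2262 with DMSO, sums in which the most abundant genes weigh most. Of these 9, Apoa1 (0.14) and Hnf4a (0.15) were higher and Tat (-0.19) was lower with CCPB than with DMSO without the block, and 0 passed with it. Linear levels are relative to the array's 75th percentile.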

How the data were processed

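RNA of 12 hepatocyte cultures was labelled with Cy3 (Low Input Quick Amp kit, per the labels). The intensity of 62976 spots per array was taken from the deposited scanner files. Per the file headers it comes from Agilent Feature Extraction, version 10.7.1.1, and is linear, background-subtracted and not scaled between arrays. A deposited table by the authors gives a ratio to the array's 75th percentile for every probe (that percentile was 0.9995 to 1, and medians were 0.048 to 0.055). The ratio correlated with the scanner values at 0.99994 or more and was an alternative. A floor on dim spots can compress differences there.

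Control, non-uniform and outlier spots were left out, log2 values of a probe averaged and the array's 75th percentile subtracted. Of 45598 probes, 24268 were kept (well above background on all 3 arrays of a group, 19 left out for lack of a usable spot). Of the probes, 21229 were named by accession through RefSeq and 24369 were not, giving 20373 genes or transcripts, 10696 named. Columns of other samples numbered 0.

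All 12 arrays were fitted by group with limma 3.58.1 in R 4.3.3 (package data.table, version 1.17.8), two-sided, with Benjamini-Hochberg adjustment over all genes at 0.05 and 95% intervals unadjusted. The code was tested on simulated data. Alternatives were slide, replicate number and array column as blocks, normexp (offset 50, on median signal and background), median centring, quantile normalization, filters, probe rules, the deposited table, the compared groups only and each array left out. Promoters were searched with Python 3.11.15.

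The members and lists were chosen with earlier results of these data known. By rule, levels on every array are given for the 2 genes of each role with the smallest p in CCPB against DMSO, for genes passing in triclosan or diclosan against DMSO or in CCPB against DMSO with and without the block, for 5 genes of the sensors and BiP whatever their result, and for genes with a difference of 0.5 or more. Related lists give up to 3 genes by smallest p, with Ddit3, Atf4 and Trib3 always.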

Additional observations from a re-analysis of the deposited data

How the results depend on the processing

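CCPB lay on slide 2 and DMSO and triclosan on slide 1, and most calls for CCPB were lost in fits with the slide as a block, which also have wider intervals. Counts of called genes below are those of the 38 genes of the endoplasmic reticulum first, then those over all 20373. For CCPB against DMSO the main counts of 17 and 5758 became 0 and 693 with the slide as a block, 0 and 301 with the replicate block and slide, 1 and 277 with slide and array column as blocks (an alternative chosen after seeing the data), 10 and 3322 with median centring and 10 and 2803 with no filter on dim probes. For triclosan against CCPB, 15 and 4176 became 0 and 285, 0 and 12, 1 and 288, 7 and 2388, and 6 and 1387 under the same 5 settings. For diclosan against CCPB, 18 and 2902 became 3 and 998, 4 and 579, 5 and 1058, 5 and 1373, and 5 and 1272, and 5 and 1232 with the compared groups only. The cause of these shifts was not tested.

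For the other 3 comparisons the member count was 0 under every alternative run. Over all genes, triclosan against DMSO (13) gave 51 with the slide, 26 with the replicate block, 6 with the replicate block and slide, 2 with slide and column, 1 on slide 1 arrays only, 20 with normexp, 2 with median centring, 29 with quantile normalization, 1 with no filter, 33 with probes above background on all arrays and 0 with the compared groups only. Diclosan against DMSO (2) gave 6 with the replicate block, 0 with it and slide, 0 with slide and column, 0 on slide 1 arrays only, 8 with normexp, 1 with median centring, 1 with no filter, 10 with probes above background on all arrays and 0 with the compared groups only; the slide alone and quantile normalization gave 3 each. Triclosan against diclosan (0) gave 1 with the slide and 1 with probes above background on all arrays.

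Leaving out each array in turn, the members called ranged from 12 to 17 for CCPB against DMSO, from 9 to 18 for triclosan against CCPB and from 10 to 20 for diclosan against CCPB. All genes called ranged from 3659 to 7062, from 2112 to 5615 and from 1647 to 5430 in the same order, the highest each time without diclosan replicate 3, and from 3 to 51, 1 to 4 and 0 to 2 in the other 3. Same-numbered arrays of different groups deviated together in 1 of 18 pairs (correlation above 0.1, median -0.013). For arrays of different number this was 7 of 36 pairs (median 0.015). These deviations are from means of only 3 arrays, so the check does not settle whether the numbers pair the samples. The replicate block gave 17, 17 and 17 members for the 3 comparisons with CCPB.

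Of the single-gene values for the 15 genes chosen by rule, 2114 stayed on their side of the threshold, 177 no longer passed and 2 passed anew. Direction was compared only for values that passed in the main fit or the alternative, and 2 of these reversed. Hspa5 did so in CCPB against DMSO with slide and array column as blocks (0.0214). Xbp1 did so in triclosan against CCPB with the replicate block and slide (0.0058). Values that passed in neither fit could change sign among the 2114. Pdia3 in diclosan against DMSO was -0.075 in the main fit and 0.0044 without diclosan replicate 3. With 3 arrays a group and 1 array linking the slides, differences of CCPB of the size seen for most genes here are not resolved from the slide.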

Other observations

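Within groups, the arrays numbered 1 on slide 1 carried the highest levels of these genes more often than the other arrays did. Triclosan replicate 1 was the highest of its group for 23 of 38 genes, against 40.03% of all genes. Diclosan replicate 1 was the highest for 26 of 38, against 33.1% of all genes, and DMSO replicate 1 for 22 of 38, against 42.2%. On slide 2, CCPB replicate 1 was the highest of its group for 14 of 38 genes, against 38.9% of all. The members' median standard deviation within groups was 0.048 log2 units, against 0.081 over all genes. These counts were made after the values were seen and were not tested.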
